A study of Glycine max with 2 samples.

Results

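The regions described here are 186 differentially methylated regions (DMRs) between a cytoplasmic male sterile (CMS) soybean line and its maintainer. They lie inside genes on unplaced scaffolds of the soybean genome and touch no promoter. They are 186 of the 3527 DMRs in the series. They were selected by 3 criteria. The DMR lay on a scaffold, its annotation listed only exon, intron, 5′UTR or 3′UTR and never a promoter, and, on scaffolds numbered over 40, its mean read depth was at most 20 in both libraries. Each DMR had been called by the authors on the difference between the same 2 libraries, so the levels and differences below describe regions that were chosen for differing, and no test of that difference is given.

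NJCMS5A is the CMS line, made by repeated backcrossing with NJCMS1A as the donor of the sterile cytoplasm. NJCMS5B is its maintainer and the recurrent parent of those backcrosses, so the lines share most of the nuclear genome and differ in cytoplasm and fertility. For each line, flower buds of several sizes at the full-bloom stage were pooled, and 1 whole-genome bisulfite library was sequenced. With 1 library per line, a difference between the lines cannot be told apart from a difference between the 2 libraries or pools.

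In plants, cytosines are methylated in CG, CHG and CHH contexts (H stands for A, C or T). Methylation of promoters and transposons is commonly found with silencing, whereas methylation inside the transcribed part of a gene is found in many expressed genes, mostly at CG sites. Long introns can hold transposon sequence, which is usually heavily methylated. Bisulfite turns unmethylated cytosines into uracil, read as T, and leaves methylated cytosines as C. The methylation level of a DMR is the percentage of its cytosine calls, in all contexts together, that were still read as C, and the contexts were not separated in the tables used here.

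Oligonucleotides of the study mark 2 of the genes. One region amplified for bisulfite clone sequencing lay, by the position in the primer table, inside a DMR of Glyma.U023400 (scaffold_22:530983-533882). Elsewhere the study prints other coordinates for this region, but with a whole-genome ratio and difference in level that match those of this DMR. Its first primer pair is shown because it matches converted DNA. The forward primer holds 0 c and the reverse primer 0 g, which is how primers for bisulfite-converted template are usually built. The second pair was used for qRT-PCR of Glyma.U029400, an adenosine kinase gene with a pair of the DMRs on scaffold_28.
Glyma.U023400 bisulfite forward: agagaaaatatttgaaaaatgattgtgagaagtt
Glyma.U023400 bisulfite reverse: aaaattttataaaaaacttatcacaaccca
Glyma.U029400 qRT-PCR forward: ggtggcataggaaaggataagtt
Glyma.U029400 qRT-PCR reverse: caccaccaactatacaacacaag
In the DMR of Glyma.U023400 15.6% of calls were methylated in NJCMS5A (95% Wilson interval 14.9 to 16.3), against 2.91% in NJCMS5B (2.62 to 3.23), over 868 cytosines. The CMS line was therefore the higher of the 2 there, by 12.7 percentage points.

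The 186 DMRs lay on 37 scaffolds. Scaffold_21 held 83 of them, scaffold_32 held 15, scaffold_22 held 10, and 27 scaffolds numbered over 40 held 43. They spanned from 60 to 4397 bp with a median of 1696.5 bp, against 1135 bp over all 3527 DMRs. They held from 11 to 1387 cytosines, with a median of 369 against 215 over all DMRs, and 22 held fewer than 100. Scaffold promoter DMRs were longer still, with medians of 1998 bp and 391 cytosines. The 275 scaffold promoter DMRs and 2491 intergenic ones used for comparison were held to the same depth limit on scaffolds over 40. The values over all 3527 DMRs and over the chromosomes had no such limit. The median cytosine density was 23.7 per 100 bp, against 22.03 in gene-body DMRs of the chromosomes, 20.9 in scaffold promoter DMRs, 18.3 in the 2491 intergenic scaffold DMRs and 18.8 over all DMRs. The depth, the mean number of reads per cytosine, had a median of 11.6 in NJCMS5A and 11.03 in NJCMS5B. In total 886011 calls in NJCMS5A and 860831 in NJCMS5B lay behind the levels. The median width of a 95% Wilson interval was 1.42 points in NJCMS5A and 2.03 points in NJCMS5B. The intervals of the 2 libraries did not overlap at any of the 186 DMRs, and at 171 when each cytosine was counted once. Since the DMRs were called on these same counts, this is not separate evidence of a difference. Such intervals cover counting error only, since calls on the same read and PCR copies are not independent molecules.

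Hypo-methylation in the CMS line prevailed. The level was lower in NJCMS5A at 124 of the 186 DMRs and higher at 62, which is 66.7% hypo-methylated (59.6 to 73.0), beside 55.8% of all 3527 DMRs. Among scaffold DMRs that touch a promoter 57.1% were lower in NJCMS5A (n = 275), among intergenic scaffold DMRs 53.4%, and among gene-body DMRs of the chromosomes 65.6% (n = 32, 48.3 to 79.6). DMRs of a chromosome as a whole were lower in NJCMS5A at 70.1% (n = 311). The share was 60.2% on scaffold_21, 66.7% on scaffolds 22 to 40 and 79.1% on scaffolds over 40 (34 of 43), and the 95% intervals of these 3 shares overlap.

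The differences were modest. A difference of at least 20 percentage points was present at 29 DMRs (15.6%), while 33.9% of all DMRs had one. Of these 29, 18 lay on scaffolds over 40 and 7 on scaffold_21, and 22 were lower in NJCMS5A. The median absolute difference was 13.7 points, against 16.7 over all DMRs, 14.3 over scaffold promoter DMRs, 17.6 over intergenic scaffold DMRs and 10.7 over gene bodies of the chromosomes. None was under 10 points, which also held for the whole table.

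Very little methylation in 1 of the lines was frequent. A level under 2% in 1 of the libraries was found at 61 DMRs (32.8%, 26.5 to 39.8), beside 13.6% of all DMRs, 33.5% of scaffold promoter DMRs and 9.31% of intergenic scaffold DMRs. NJCMS5A was the line under 2% at 45 of the 61 and NJCMS5B at 16. These counts were 264 and 215 over all DMRs, 53 and 39 over scaffold promoter DMRs, and 35 and 11 over chromosome DMRs. The hypo-methylated DMRs had a median level of 3.31% in NJCMS5A and 18.9% in NJCMS5B. The hyper-methylated DMRs had a median of 19.2% in NJCMS5A and 4.65% in NJCMS5B, so both directions joined a low level near 4% with a high one near 19%, with the lines exchanged. The plot of the levels shows these 2 groups on either side of the diagonal, which the difference required by the calling leaves empty.

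**Figure D1:**
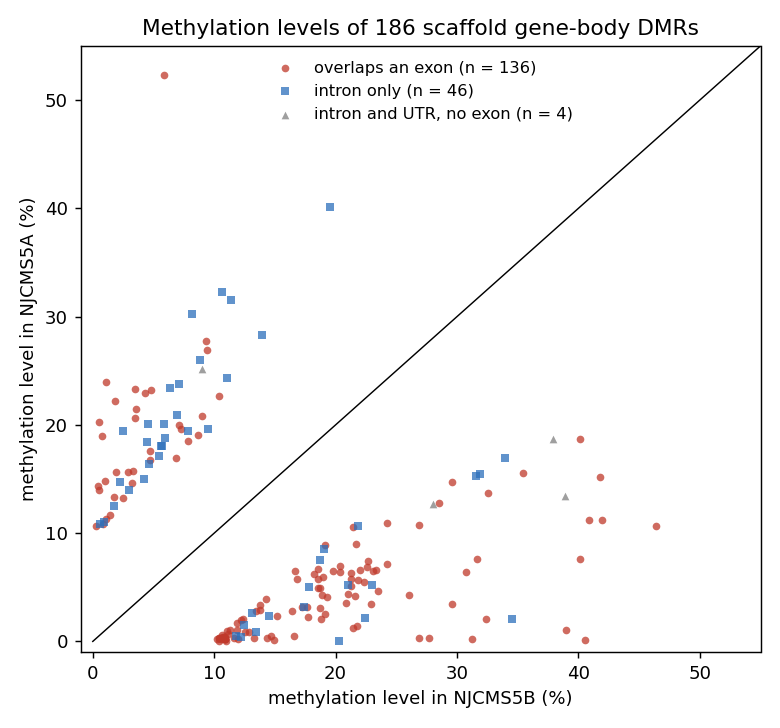
Methylation level of each of the 186 scaffold gene-body DMRs in NJCMS5A (y axis, %) against NJCMS5B (x axis, %), with the line of equal levels. The 62 DMRs above the line and 124 below it mostly lie along an axis, with 1 library low, and squares (DMRs in introns alone) are more frequent above the line.

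The direction differed with the part of the gene. Of the 136 DMRs that overlap an exon, 102 were lower in NJCMS5A (75.0%, 67.1 to 81.5), while of the 46 in introns alone 19 were (41.3%, 28.3 to 55.7). Exon-overlapping DMRs had median levels of 5.73% in NJCMS5A and 14.3% in NJCMS5B. In introns alone the order turned, with medians of 15.4% in NJCMS5A and 10.9% in NJCMS5B. The split was present both on scaffold_21 and off it. On that scaffold 38 of 54 exon-overlapping and 11 of 27 intron-only DMRs were lower in NJCMS5A, and outside it 64 of 82 and 8 of 19 were. In gene bodies of the chromosomes, 16 of 22 exon-overlapping and 4 of 9 intron-only DMRs were lower in NJCMS5A.

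DMRs that reach an untranslated region were also mostly lower in NJCMS5A, at 46 of the 59 that overlap a 3′UTR (78.0%) and 9 of the 11 that overlap a 5′UTR (81.8%). Those at a 5′UTR had a median level of 0.623% in NJCMS5A and 10.9% in NJCMS5B. Of these, 8 of the 11 were under 2% in 1 library, and 0 of the 11 had a difference of 20 points. Most DMRs cover several parts of a gene, so these groups share members. The same contrast appeared among scaffold DMRs that do touch a promoter. Of those that also overlap an exon, 104 of 142 were lower in NJCMS5A (73.2%), whereas of those over a promoter alone 50 of 130 were (38.5%). Neighbouring DMRs on 1 gene are not independent, and the intervals do not account for this.

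**Figure D2:**
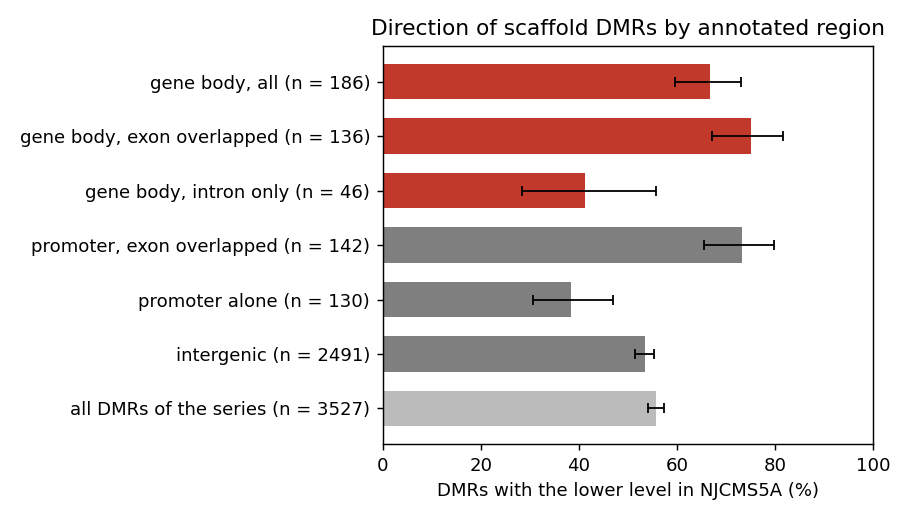
Percentage of DMRs with the lower level in NJCMS5A (x axis) by annotated region, with 95% Wilson intervals as bars; red bars are gene-body DMRs without promoter, grey bars other DMRs. Exon-overlapping gene-body DMRs stand at 75.0% and intron-only ones at 41.3%, and scaffold promoter DMRs split likewise into 73.2% with an exon and 38.5% without any other region.

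The 186 DMRs were annotated to 134 genes in 209 pairs of DMR and gene. By their names 113 of these genes lie on scaffolds, and 21 carry the name of a chromosomal gene although the DMR lies on a scaffold. All 22 pairs of the latter kind, at 12 DMRs, were made through a UTR alone, and each of the 12 DMRs is also paired with a scaffold gene. For example, DMR_scaffold_344_8782 (1.39% in NJCMS5A and 21.8% in NJCMS5B) is listed with Glyma.U035700 and with Glyma.04G084500, Glyma.15G133100 and Glyma.16G157500. Since no genome of the files' build was used here, these pairs are given as the annotation has them. Of the 134 genes, 81 had only DMRs lower in NJCMS5A, 19 only DMRs higher in it, and 34 had both.

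Genes with several gene-body DMRs switched direction along their length. A single DMR was present in 97 genes, and 78 of these were lower in NJCMS5A (80.4%), but some of these genes share a DMR. Counted by DMR, 60 of the 76 that lay in no gene with 2 or more were lower (78.9%, 68.5 to 86.6). Among the 37 genes with 2 or more, 34 had both directions. Between consecutive DMRs of a gene among those selected here, 59 of 75 steps changed direction (78.7%, 68.1 to 86.4). In 23 of the 37 genes every step did. Other DMRs of a gene that lie between selected ones were left out of these steps. Pooled over the genes with 2 or more, 47 of 68 exon-overlapping DMRs and 15 of 39 intron-only DMRs were lower in NJCMS5A. Among DMRs of genes with 1 only, 55 of 68 exon-overlapping and 4 of 7 intron-only ones were. The exon and intron difference was not compared gene by gene, and few intron-only DMRs lay outside the genes with 2 or more.

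Glyma.U017400, annotated as a beta glucosidase (an enzyme that splits glucose from its conjugates, listed under phenylpropanoid biosynthesis and starch and sucrose metabolism), held the most, 7 over 33695 bp of scaffold_21. In scaffold order its levels in NJCMS5A were 6.45%, 17.6%, 7.11%, 5.23%, 19.0%, 11.2% and 20.1%. In NJCMS5B they were 30.7%, 4.69%, 24.2%, 23.0%, 8.66%, 40.9% and 5.84%. The CMS line was thus below the maintainer at 4 of the 7 and above it at 3. A further DMR of this gene overlaps exon and intron but was not among the DMRs selected here. It had 19.9% in NJCMS5A against 8.55% in NJCMS5B. It lies between the DMRs of 7.11% and 5.23% in NJCMS5A, which are therefore not neighbours among all DMRs of the gene. A DMR of +10.4 points and one of -29.7 points lie only 33 bases apart.

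Glyma.U015000, which has no GO or KEGG term in the tables, held 6 DMRs over 17200 bp. NJCMS5A had 18.7%, 25.1%, 7.60%, 19.6%, 14.7% and 3.22% there, and NJCMS5B 37.9%, 9.02%, 31.7%, 9.49%, 2.23% and 17.3%. Another 3 genes held 5 DMRs each. Glyma.U027500, with terms for DNA binding and sigma factor activity (sigma factors direct RNA polymerase to promoters in bacteria and plastids), switched at every step. Its levels in NJCMS5A were 3.18%, 18.8%, 8.53%, 17.1% and 3.40%, against 17.4%, 5.97%, 19.0%, 5.43% and 13.8% in NJCMS5B, and its first 3 DMRs lie 4 and 0 bases apart. Glyma.U016100, a gene with GTPase terms, went from 30.2% against 8.17% in an intron to 0.197% against 10.9% at its 3′UTR end. Glyma.U026800 carries terms for DNA helicase, kinase and magnesium chelatase activity. It was lower in NJCMS5A at 4 of its 5 DMRs, among them the 2 at its 3′UTR (0.324% against 10.4%, and 13.7% against 32.6%).

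A further 7 genes held 4 DMRs each. In Glyma.U018700 and Glyma.U032300 the DMRs came in adjoining pairs of opposite direction. In Glyma.U018700 the levels in NJCMS5A and NJCMS5B were 5.19% and 21.0%, then 23.4% and 6.33% after 1 base, and 6.42% and 20.3%, then 23.8% and 7.12% after 3 bases. In Glyma.U032300, whose terms concern transcription regulation, they were 10.6% and 21.9%, then 18.4% and 4.45% after 3 bases, and 5.71% and 21.9%, then 31.5% and 11.4% after 9 bases. Glyma.U016500, annotated as a nuclear pore protein, was lower in NJCMS5A at 3 of its DMRs and higher at 1, a stretch of 1111 intronic cytosines at 26.0% against 8.86%. Glyma.U034000, annotated as a subunit of nuclear RNA polymerase, was lower at 3 of 4 and higher only in an intron (11.05% against 0.902%).

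The remaining genes of this size were Glyma.U012200, Glyma.U013600 and Glyma.U023700. Glyma.U012200, with no term, ranged from a difference of -17.3 to +12.4 points. Glyma.U013600, with heme and DNA binding terms, ranged from -16.3 to +13.2 points, and Glyma.U023700, with DNA binding terms, was higher in NJCMS5A at 3 of 4, from -13.8 to +14.3 points. Another 6 genes held 3 DMRs each (Glyma.U004600, Glyma.U010800, Glyma.U014100, Glyma.U018800, Glyma.U034500 and Glyma.U045000), and all 6 had both directions.

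**Figure D3:**
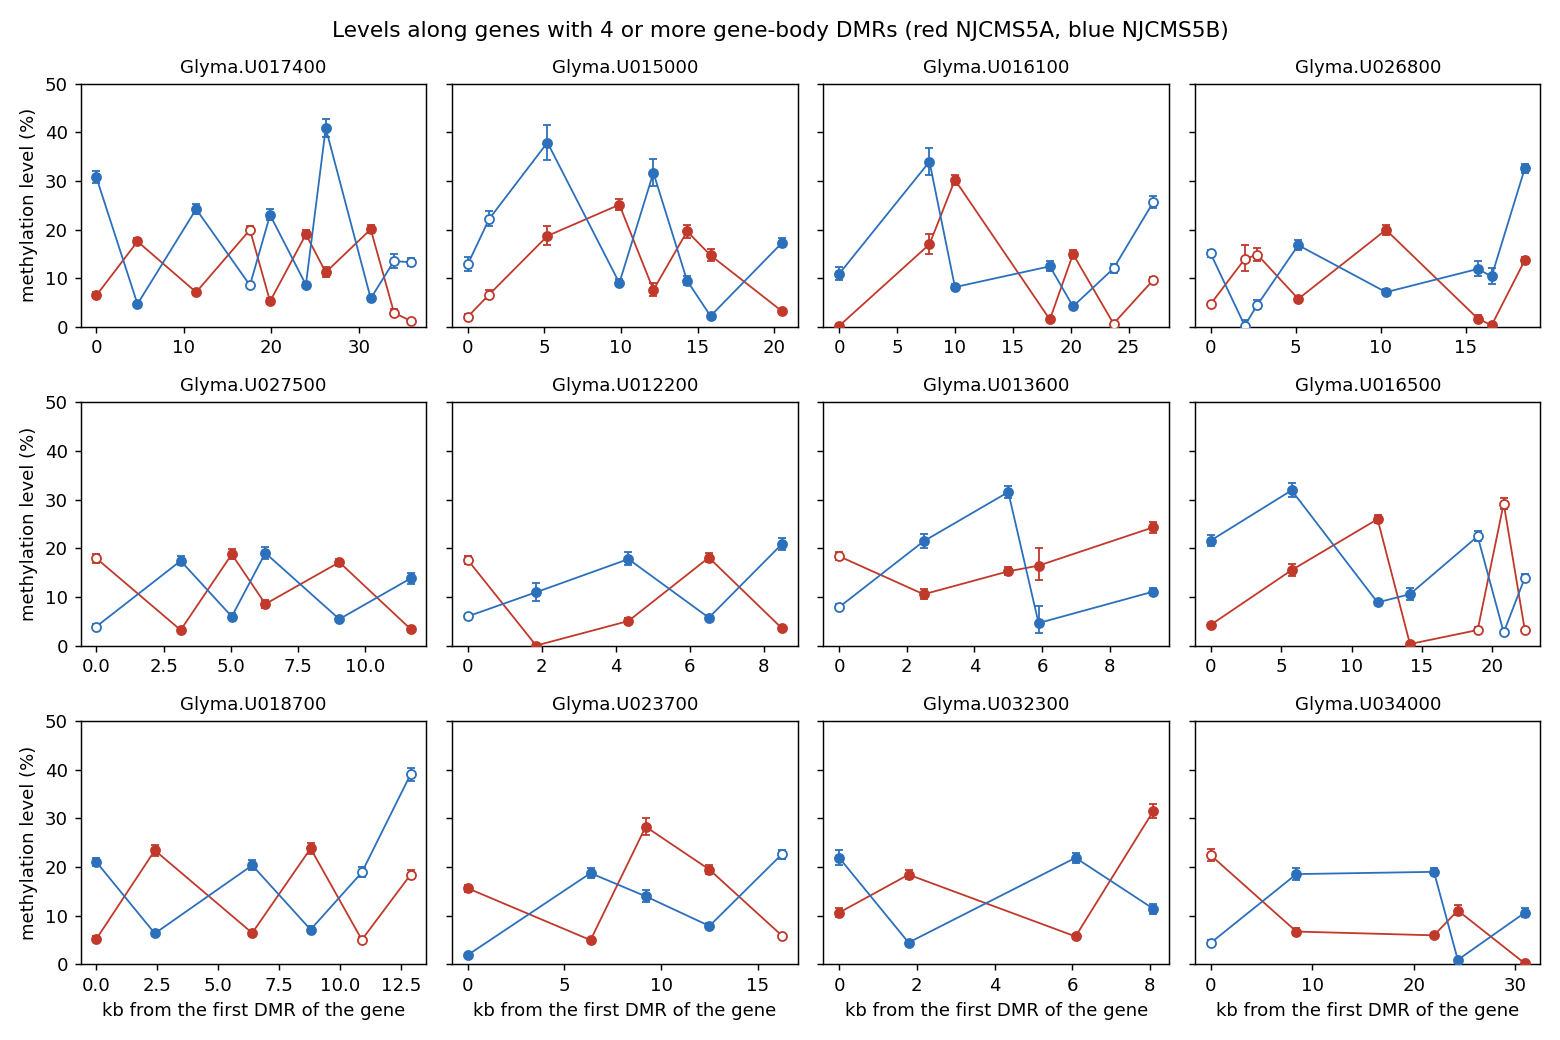
Methylation level (y axis, %) of the DMRs along the 12 genes with 4 or more gene-body DMRs, against the distance in kb of each DMR's middle from the first DMR of the gene; red is NJCMS5A, blue NJCMS5B, filled circles gene-body DMRs, open circles other DMRs of the gene, bars 95% Wilson intervals. The 2 lines cross between most neighbouring DMRs, as in the 7 selected DMRs of Glyma.U017400 and the 5 of Glyma.U027500. Open circles can also overlap an exon or intron.

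Consecutive scaffold DMRs were also compared whether or not they shared a gene, so pairs inside 1 gene are included here and were not counted apart. Of 265 pairs of consecutive scaffold DMRs with a gene-body DMR among them, 82 shared a direction (30.9%, 25.7 to 36.7). Under 1000 bp apart it was 26 of 101 (25.7%), and from 1000 to 10000 bp 48 of 145 (33.1%). Over all scaffold DMRs 41.1% of 2702 pairs shared a direction, and 35.4% of 1082 pairs under 1000 bp apart. On the chromosomes 62.9% of 291 pairs did, with a median distance of 1929420 bp, and 11 of the 12 pairs under 1000 bp apart. A caller that joins adjoining windows of 1 direction would leave mostly opposite neighbours at short distance, and its part in these shares was not tested.

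Depth entered the selection on scaffolds over 40, so it is given here as a description. Across the 186 DMRs, which share 2 libraries, the Spearman coefficient of the 2 depths was 0.01, and it was 0.16 for the 164 of at least 100 cytosines. It was 0.14 over the 83 on scaffold_21, where no limit applied. Other scaffold DMRs, with the same limit on scaffolds over 40, had 0.14 with a promoter and 0.16 in intergenic sequence. The 311 DMRs of the chromosomes, without a limit, had 0.69, and the 158 of these with at least 100 cytosines had 0.49. The depth of NJCMS5A over that of NJCMS5B had a median of 1.06 at the DMRs lower in NJCMS5A and 0.965 at those higher in it, and ranged from 0.386 to 2.93. The ratio was beyond 1.5 in either direction at 20 DMRs. The part of depth in the directions was not tested beyond the depth limits of the closing section.

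**Figure D4:**
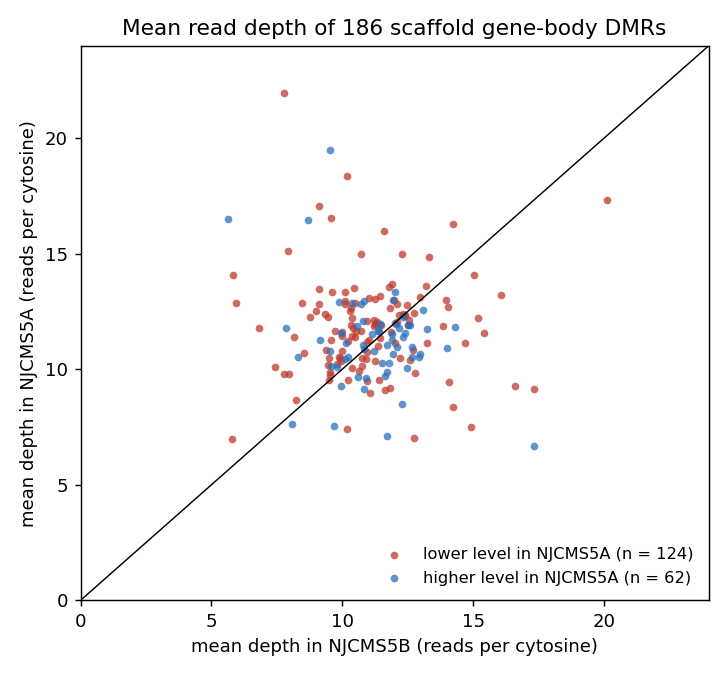
Mean read depth of each of the 186 DMRs in NJCMS5A (y axis, reads per cytosine) against NJCMS5B (x axis), with the line of equal depth; red points had the lower level in NJCMS5A, blue the higher. The points form a cloud around the median depths of 11.6 and 11.03 (Spearman 0.01), with depths of at most 20 on scaffolds over 40 by selection.

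The depth criterion removed 8 of 194 scaffold gene-body DMRs. The nearest inside it was DMR_scaffold_197_10859 of Glyma.U008400 (18.4 in NJCMS5A and 10.2 in NJCMS5B), with 8.96% against 21.7%. The next were DMR_scaffold_44_65038 of Glyma.U038300 (17.3 in NJCMS5B), with 14.0% against 0.502%, and DMR_scaffold_97_37445 of Glyma.U045000 (17.1 in NJCMS5A), with 7.56% against 18.7%. The nearest outside were DMR_scaffold_442_8932 of Glyma.U039300 (20.6 in NJCMS5B), with 0.427% against 21.8%, and DMR_scaffold_165_18381 of Glyma.U006500 (22.6 in NJCMS5B), with 0.394% against 11.2%. Farthest outside was DMR_scaffold_2080_2369 at depths of 530.1 and 288.7, with 0.254% against 45.8%. Of the 8 left out, 7 were lower in NJCMS5A. On scaffolds up to 40, where no limit applied, 2 of the DMRs exceeded 20, in Glyma.U009800 (20.1 in NJCMS5B) and Glyma.U032000 (21.95 in NJCMS5A).

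The largest changes were decreases, where 100 or more cytosines and a depth of 10 or more per library were required. In Glyma.U040300 (scaffold_587, a gene with a protein binding term) the CMS line stood at 10.7% (10.03 to 11.4) and the maintainer at 46.4% (45.3 to 47.5). In Glyma.U043200 on scaffold_78 it was 2.06% and 32.4%, and in Glyma.U026300 on scaffold_23, with a DNA binding term, 15.2% and 41.7%. The first DMR of Glyma.U017400 (6.45% and 30.7%) and a DMR of Glyma.U014500 (4.27% and 26.0%), which has an iron-sulfur cluster binding term, followed. All 5 overlap an exon.

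The largest increases by the same criteria were smaller. In Glyma.U018800 the CMS line reached 23.9% (23.1 to 24.8) against 1.09% (0.901 to 1.32) in the maintainer over 762 cytosines reaching its 3′UTR. Its other 2 DMRs, which reach the 5′UTR, were lower in NJCMS5A (3.89% against 14.3%, and 0.266% against 10.9%). An intron of Glyma.U032300 (31.5% and 11.4%), Glyma.U023900 (23.3% and 3.44%), Glyma.U029000 (20.3% and 0.513%), which has a cell wall term, and Glyma.U015600 (23.0% and 4.33%), which has a chloroplast term, followed. Outside those criteria the largest change of all was an increase, in Glyma.U008400, with 52.3% (49.3 to 55.3) against 5.90% (4.88 to 7.12), where NJCMS5A had a depth of 7.10 over 146 cytosines.

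The 5 lowest measured levels, among DMRs with at least 100 cytosines, were in NJCMS5A. Glyma.U022500 on scaffold_2140 had 0.0888% there (0.0157 to 0.501) and 40.6% (38.2 to 43.1) in NJCMS5B. A DMR of Glyma.U014500, which overlaps the one of this gene among the largest decreases, had 0.170% against 14.9%. The DMR shared by Glyma.U034000 and Glyma.U034100 had 0.177% against 10.6%, and Glyma.U009800 had 0.196% against 10.2%. The DMR at the 3′UTR of Glyma.U016100 had 0.197% against 10.9%. All 5 overlap an exon, and their upper 95% limits in NJCMS5A were at most 0.576%. Levels were not corrected for unconverted cytosines, whose rate, by the study's conversion rates, was higher in NJCMS5B than in NJCMS5A. Levels this low were therefore not told apart from 0, and their order between the lines is not resolved.

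The study names 19 of the genes in its text or pathway list, with 37 of the DMRs, of which 25 were lower in NJCMS5A. The levels given are of gene-body DMRs. Promoter DMRs of some of these genes had the opposite direction and those of others the same. Several of the 19 genes are enzymes of primary metabolism. Glyma.U016800, a glutamate dehydrogenase of nitrogen metabolism, had 0.331% (0.226 to 0.484) in the CMS line against 13.3% (12.5 to 14.2) in the maintainer. Glyma.U036800, annotated as a zinc-binding dehydrogenase, had 0.312% and 27.7%. Glyma.U025400, a UDP-apiose/xylose synthase that makes nucleotide sugars for cell wall polysaccharides, had 3.43% and 22.9%. Of the 2 genes for 2-isopropylmalate synthase, the enzyme that opens leucine synthesis, Glyma.U013100 had 10.98% and 24.2%. Glyma.U013200 had 12.5% and 1.79% in an intron and 3.04% and 18.8% at its 3′UTR end. Glyma.U029400, the adenosine kinase gene of the primers above, also held both directions. Its small DMR of 32 cytosines had 0.887% and 12.9%, and its larger one of 212 cytosines had 10.7% and 0.284%.

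Signalling and regulatory genes on that list were mixed. Glyma.U034500, annotated as mitogen-activated protein kinase 3 and carrying response regulator terms, was lower in NJCMS5A at its 3′UTR end (1.23% against 21.4%), higher over 1387 cytosines of an intron (19.4% against 2.45%) and lower in a further intronic DMR (2.37% against 14.5%). Glyma.U034700, another protein kinase, was higher in NJCMS5A (13.3% against 1.78%). Glyma.U015500, a basic helix-loop-helix transcription factor, was lower in its body (12.7% against 28.5%) and higher at its promoter DMR (35.7% against 17.2%). The study lists its promoter as hypo-methylated in NJCMS5A. Glyma.U033400, of the NOT family that acts in mRNA turnover, was lower too (2.94% against 13.8%). Glyma.18G223500, a flavoprotein gene named for chromosome 18, shares a DMR on scaffold_44 with Glyma.U037800 and Glyma.08G277600 (0.354% against 14.4%).

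Genes for protein folding and translation were mixed as well. Glyma.U012100, a DnaJ homologue (co-chaperone of HSP70), had 6.95% against 20.4%. Glyma.U008400, annotated as an HSC70-interacting protein of the ubiquitin system, held its DMR of 52.3% against 5.90% next to one of 8.96% against 21.7%. The translation initiation factor gene Glyma.U010100 had 0.522% against 11.8% in an intron and 14.8% against 0.971% across an exon. Glyma.U010600, a P-loop nucleotide hydrolase gene under ribosome biogenesis, was higher in NJCMS5A (20.6% against 3.49%). The 1 member gene with a mitochondrial or oxidative phosphorylation term, Glyma.U041500, annotated as an NADH dehydrogenase subunit, had 2.08% (0.813 to 5.23) against 34.6% (29.6 to 39.9) in an intronic DMR of only 23 cytosines.

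Grouped by the GO and KEGG terms in the tables, 90 of the 134 genes had a term, and their 132 DMRs were lower in NJCMS5A at 89 (67.4%), close to the 66.7% of all 186. Hydrolase genes (21) had 23 of 36 DMRs lower in NJCMS5A, nucleic acid binding genes (18) 21 of 37, genes of transcription regulation (14) 17 of 27, kinase genes (10) 11 of 16, and peptidase genes (6) 7 of 10. Transporter genes (8) were even, with 6 of 12. Oxidoreductase genes (11) had 13 of 16 lower in NJCMS5A. Genes with translation or ribosome terms (3) had 4 of 6, and those with plastid or photosynthesis terms (2) 5 of 7. In the former, 4 DMRs were of Glyma.U034000, the RNA polymerase subunit gene, and 1 was there through Glyma.15G082900, paired by a UTR. In the latter, 5 DMRs were of Glyma.U026800, so each count rests mostly on 1 gene. Over all DMRs of the series annotated to each group, the share lower in NJCMS5A ran from 58.7% (nucleic acid binding) to 80.0% (oxidoreductases), and it was 69.0% for transporters (29 of 42). Groups share genes and DMRs, and some are in a group only through a chromosomal gene paired by a UTR.

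Terms naming reproduction, pollen or sperm held 4 genes with 1 DMR each, all 4 lower in NJCMS5A, beside 7 of 10 DMRs over the whole series for these terms. Only Glyma.U042800, with a protein kinase term, is there for recognition of pollen, and its intronic DMR had 2.12% in NJCMS5A against 22.5% in NJCMS5B. Glyma.U030100 (4.42% against 21.1%) is there through terms of the sperm flagellum, a structure of animals. Glyma.U012400 (3.14% against 17.6%) and Glyma.U023600, a DNA helicase (8.89% against 19.2%), are there through virion assembly and a general reproduction term.

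Many of the genes also had a DMR over their promoter. At 128 of the 186 DMRs another DMR overlapped the promoter of the same gene, in 71 genes and 129 pairs when the nearest was taken, at a median distance of 2705 bp. A promoter DMR could be the nearest to several gene-body DMRs. The direction was the same in 54 pairs (41.9%, 33.7 to 50.5) and opposite in 75, beside 41.1% of the same direction among all consecutive scaffold DMRs. Where the gene-body DMR was lower in NJCMS5A, the promoter DMR was lower in 44 of 83 pairs. Where it was higher, the promoter DMR was lower in 36 of 46. The 58 DMRs with no promoter DMR in their gene were lower in NJCMS5A at 72.4%, the 128 with one at 64.1%.

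Among the pairs of opposite direction, the largest gene-body DMR was the intronic one of Glyma.U034500 (19.4% against 2.45%), whose promoter DMR had 0.313% in NJCMS5A and 12.8% in NJCMS5B. Glyma.U016500 paired 26.0% against 8.86% in the body with 3.19% against 22.5% at the nearest promoter DMR. Its next promoter DMR was higher in NJCMS5A (29.2% against 2.69%), and the one beyond was again lower (3.21% against 13.9%). The reverse arrangement, a lower body with a higher promoter, was found in Glyma.U009200, a gene with DNA binding terms (6.32% against 21.3% in the body, 12.6% against 0.573% at the promoter). It was also found in Glyma.U034000 (5.94% against 19.0%, and 22.4% against 4.37%) and in Glyma.U030100 (4.42% against 21.1%, and 22.9% against 7.96%).

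**Figure D5:**
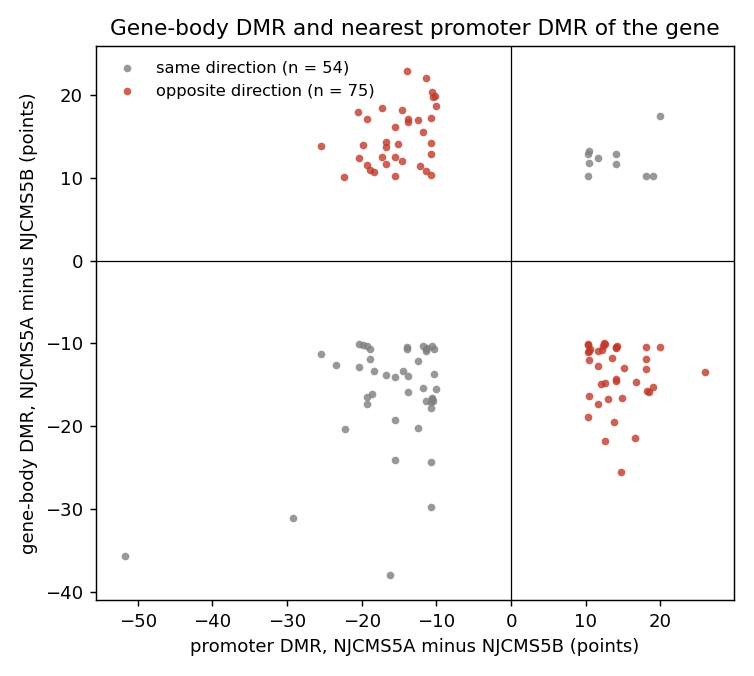
Difference in level, NJCMS5A minus NJCMS5B in percentage points, of the gene-body DMR (y axis) against that of the nearest DMR over the promoter of the same gene (x axis), for 129 pairs. Grey points (54) share a direction and red points (75) do not; the upper right corner, higher in NJCMS5A at both, holds 10 pairs.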

How the data were processed

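Whole-genome bisulfite reads of 1 pooled flower bud library per line were aligned by the authors with Bismark (version 0.12.5, per the submitters' processing notes) to the Williams 82 genome, and the gene IDs are of its Wm82.a2 annotation. The authors called DMRs with a sliding-window Fisher test (swDMR). In the deposited table the methylation level is a fraction, given here in percent, without correction for unconverted cytosines. The deposited coverage of a DMR is its mean number of reads per cytosine, with no scaling of 1 library to the other. Calls were recovered as level times depth times cytosines, which gave whole numbers at all 3527 DMRs (largest distance 3.93e-10). The authors' p-values, ratios and differences were not used, and their GO and KEGG tables only for the genes under each term. Of the gene IDs, 0 matched the RefSeq table given. Wilson intervals and call recovery were tested on simulated data.

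No test was run between the lines, since each had 1 library. DMRs, gene lists and groups were chosen with earlier results of these data known. DMRs named are those of genes the study names, the 5 largest increases and 5 largest decreases (at least 100 cytosines and depth 10), genes with 3 or more DMRs, the 5 lowest levels, the clone-sequenced region, those nearest the depth limit, and the 5 largest DMRs opposed by a promoter DMR. Other genes named for a group were picked with their values in view. The software was matplotlib 3.10.9, pandas 2.3.3, scipy 1.17.1, numpy 2.4.6 and Python 3.11.15.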

Additional observations from a re-analysis of the deposited data

How the results depend on the processing

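No paired analysis was possible because each line had 1 library. The share of DMRs lower in NJCMS5A stayed between 64.6% and 71.8% under all 6 alternatives. Counts fell where an alternative kept fewer DMRs. Where each library had a depth of 10 or more (113 DMRs), 73 were lower in NJCMS5A, 10 had a difference of 20 points, 19 genes had both directions and 29 body and promoter pairs shared a direction. With a difference of at least 15 points (76 DMRs) these were 54, 29, 10 and 22, and the median difference was 18.4 points. Without scaffold_21 (103 DMRs) they were 74, 22, 17 and 21. Requiring 100 cytosines (164 DMRs) or a depth of at most 20 on every scaffold (184 DMRs) kept each count within 1.5 times. Leaving out genes named on chromosomes kept all 186 DMRs, so it could not change the share, and the counts were the same. The split by gene part, which was noticed in the data, was put through the same alternatives afterwards. Exon-overlapping DMRs stayed between 74.6% and 78.2% lower in NJCMS5A, and intron-only DMRs between 32.1% and 47.1%. The depth limits counting error only, and the spread between plants or libraries of a line is unknown.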
